A study of Homo sapiens with 4 samples.

Results

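The 46 genes described here encode the proteins that mark, license and fire replication origins and that copy DNA at the fork. They were taken by symbol from a deposited table of 58735 genes, in all 4 libraries of the study. All 46 had a mean of at least 1 CPM (reads scaled to library size) over the 4 libraries, a filter that 14585 genes passed. The libraries come from MDA-MB-231, an established human cell line of triple-negative breast cancer, carrying a doxycycline-inducible fusion of histone H2B and eGFP (TetOn-H2BeGFP). Every group shares that transgene, 5 μg/ml doxycycline for 3 days, staining with the dyes Claret and Violet, and a chase of 12 days in which label is diluted by division. Slow-cycling cells were the 1% that kept most Claret dye (Claret), most H2B-eGFP (eGFP) or most Violet dye (Violet). Bulk cells were sorted from the same labelled line with no gate on fluorescence. Each of the 4 groups holds 1 library, so no difference has a replicate check, and whether the sorts came from separate cultures is not given in the sources used here.

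Groups follow the sample titles, which the table's columns also carry. The treatment field names another sort for every library: the library titled Bulk is there a Claret sort, the one titled Claret is an eGFP sort, the one titled H2B-eGFP is a Violet sort, and the one titled Violet is un-gated. Every difference below therefore rests on the titles. With the treatment field the median log2 ratio of the 46 genes to the un-gated library would be 2.06 for Claret, and no gene would be called lower. Where 3 values follow each other without names, they are for Claret, eGFP and Violet in this order. Summed counts were 15508179 to 16976909 per library. The mesenchymal genes VIM (156 to 211 FPKM) and AXL (119 to 148 FPKM) were high, as known of this line. FPKM scales reads to library size and to the length listed for each gene, which need not be that of the transcript expressed. The luminal receptor genes PGR (0 reads in all 4) and ESR1 (3 to 7 reads) were near absent. The other luminal markers checked were detected, FOXA1 with 235 to 271 reads and GATA3 with 74 to 95. Of the leukocyte markers, CD3E had 0 reads in all 4 libraries, and PTPRC and LYZ had at most 2.

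Licensing takes place in G1, when the origin recognition complex (ORC), CDC6 and CDT1 load the ring-shaped MCM2-7 helicase onto DNA, and geminin (GMNN) later binds CDT1 and blocks renewed loading. At S-phase entry CDC45 and the GINS complex join MCM2-7 to form the active helicase, polymerase alpha with primase lays primers, and polymerases epsilon and delta extend them on the sliding clamp PCNA, which the RFC complex loads. Transcription of many of these genes is known to peak around the G1/S transition under E2F factors, and resting cells are known to hold them repressed through RB-family pocket proteins.

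The promoters are described first, because E2F sites are the best-known sequence these genes share. RefSeq promoter windows of the GRCh38.p14 build, from 250 bases before to 50 bases after a start, were matched for 41 of the 46 genes. POLD3, FAM111B, GINS4, MCM4 and MCM5 were not matched. An E2F-type match was TTTCCCGC, TTTCGCGC, TTTGCCGC or TTTGGCGC on either strand, overlaps allowed. Of the 41 genes, 22 held one (53.7%), against 3.99% of all genes in the promoter table and 6.67% of those that passed the expression filter. The following 60-base windows lie before the RefSeq start and outside annotated exons, run 5′ to 3′ on the gene's strand, and carry the match in capitals. They show the single, palindromic and doubled forms.
PCNA, chr20:5126648-5126707, minus strand: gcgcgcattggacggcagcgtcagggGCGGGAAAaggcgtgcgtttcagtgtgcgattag
MCM3, chr6:52284883-52284942, minus strand: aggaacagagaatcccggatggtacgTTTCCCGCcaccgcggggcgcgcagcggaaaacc
GMNN, chr6:24775307-24775366, plus strand: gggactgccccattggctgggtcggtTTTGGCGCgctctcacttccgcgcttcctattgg
POLA1, chrX:24693755-24693814, plus strand: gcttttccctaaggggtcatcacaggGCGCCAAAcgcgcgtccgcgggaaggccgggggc
TIPIN, chr15:66356718-66356777, minus strand: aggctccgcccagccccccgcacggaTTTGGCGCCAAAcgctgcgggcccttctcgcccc
MCM6, chr2:135876562-135876621, minus strand: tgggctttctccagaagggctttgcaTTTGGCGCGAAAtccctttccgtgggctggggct
MCM6, chr2:135876500-135876559, minus strand: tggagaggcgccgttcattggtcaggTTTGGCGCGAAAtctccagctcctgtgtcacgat
In MCM6 a match on each strand overlaps within each element, and the elements begin 152 and 90 bases before the start.

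TOP2A, whose mRNA is known to peak later, in G2 and mitosis, is shown for contrast. CCAAT and CHR-type letters (TTTGAA or TTCGAA) are elements known from genes of that phase. The window shown holds a match to each, in capitals on the strand opposite to the gene. Further CCAAT matches lie in this promoter, and another CHR-type match begins 194 bases before the start, on the gene's strand.
TOP2A, chr17:40418024-40418083, minus strand: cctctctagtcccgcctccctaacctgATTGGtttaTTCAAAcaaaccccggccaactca
CHR-type matches stood in 2 of the 41 promoters (4.88%), TOP2A and MCM6, and in 19.5% of all genes. CCAAT stood in 26 of the 41 (63.4%) and in 39.7% of all genes. A match is only a run of letters, and none of these was tested as a site.

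All 46 genes had fewer normalized reads in each slow-cycling library than in Bulk, and 39 were lower by at least 2-fold, a log2 ratio of -1 or less, in all 3 libraries. Of all genes kept, 42.8% lay below 0 in all 3 and 4.93% reached -1 in all 3. Taken one library at a time, 39 of the 46 genes were called lower in Claret, where the background was 6.72%, 39 in eGFP (background 7.64%) and 40 in Violet (background 6.92%). None was called higher, a call that 11.3% to 12.0% of all genes reached. The members' median log2 ratio was -1.92 for Claret, -2.13 for eGFP and -2.06 for Violet, beside -0.01, -0.01 and 0.01 over all genes kept. A log2 ratio of -2 or lower was reached by 22 of the 46 in Claret (background 1.25%), 27 in eGFP (1.64%) and 26 in Violet (1.24%), and by 22 in all 3 (1.01%). With 1 library per group these are counts past a fold and not tests, and the 3 comparisons share Bulk. In sorted bulk RNA, fewer cells in S phase and less of each mRNA per cell cannot be told apart.

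Together the 46 genes held 91973 reads for Bulk, then 26593 for Claret, 21573 for eGFP and 23196 for Violet. As a share of the library this was 0.574% in Bulk (95% exact binomial interval 0.570 to 0.577), 0.157% for Claret, 0.136% for eGFP and 0.1496% for Violet. MCM7 and TOP2A alone made up 27.0% of these reads in Bulk and 22% to 24.4% in the others. Intervals given here and below cover counting error only, since each group holds 1 library. No molecular identifiers are named in the labels, so reads copied in amplification may be counted as separate, which the intervals do not cover. Ranked by the median of the 3 log2 ratios, 13 of the 46 were among the 100 lowest of the 14585 genes. FAM111B stood at rank 2, CLSPN at 6, GINS2 at 7, MCM10 at 12, FEN1 at 18 and ORC1 at 20. At the other end, ORC4 stood at rank 5960, RFC1 at 4922 and ORC2 at 4777.

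**Figure D1:**
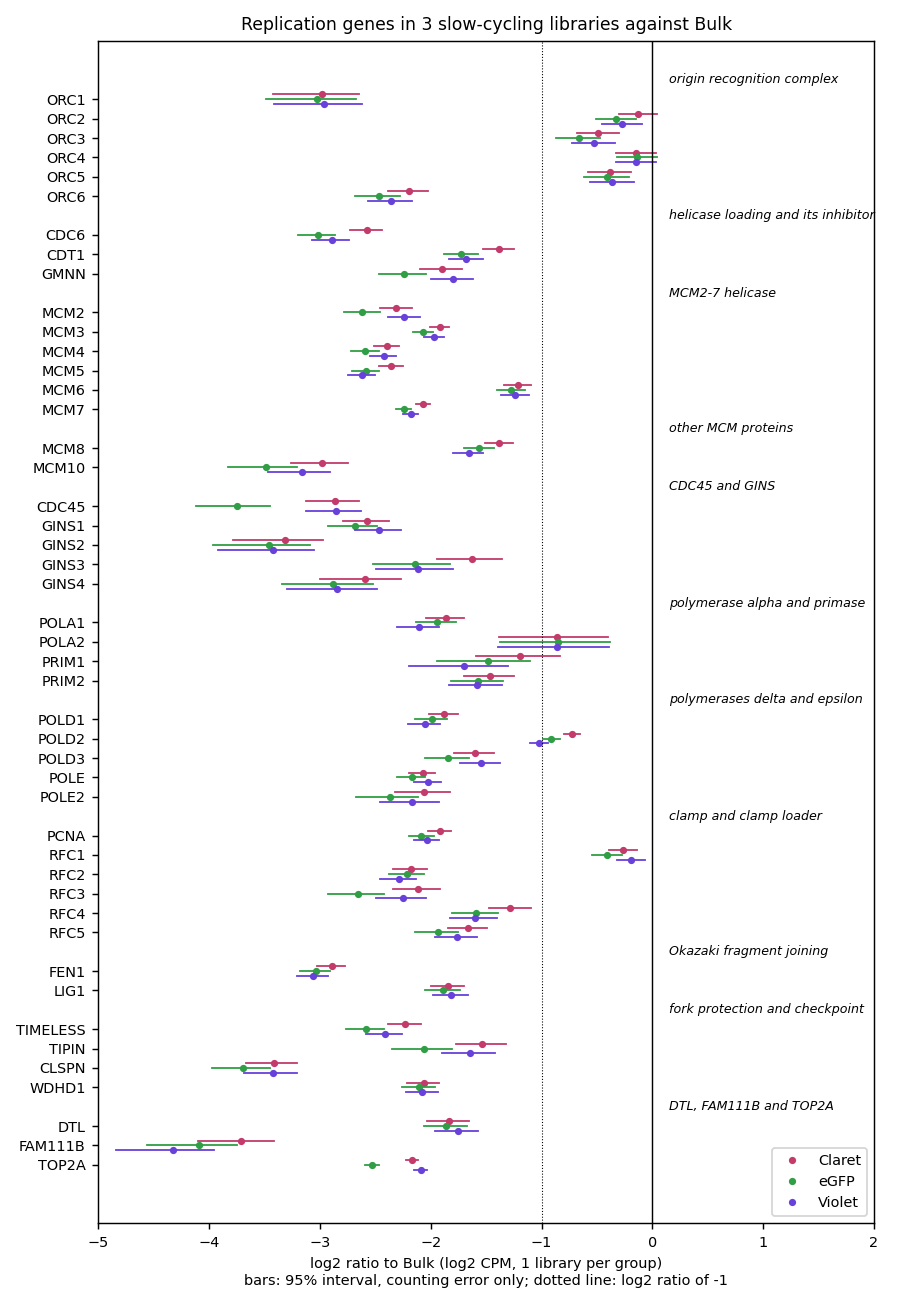
Log2 ratio to Bulk (horizontal axis) of each of the 46 genes, grouped by role, in Claret, eGFP and Violet, with 95% counting intervals as bars. Most points lie left of the dotted line at -1, while ORC2 to ORC5, RFC1 and POLA2 lie right of it in all 3 libraries.

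The origin recognition complex split into subunits far below Bulk and subunits close to it. ORC1 (ENSG00000085840, GRCh38 chromosome 1, 52372829 to 52404459), the ATPase subunit known to be made and destroyed within each cycle, gave 483 reads for Bulk, then 64 for Claret, 58 for eGFP and 60 for Violet. Its log2 ratios were -2.98 (95% interval -3.42 to -2.65), -3.03 and -2.97, so that the slow-cycling libraries differed by at most 0.06 and all were far from Bulk. At 58 to 64 reads that closeness is loosely determined: the interval of Claret minus eGFP was -0.49 to 0.58. ORC6 (ENSG00000091651, chromosome 16, 46689643 to 46698394), the subunit least tightly held by the complex, gave 1331 reads for Bulk and 311, 241 and 258 in the same order, at log2 ratios of -2.20, -2.47 and -2.36. ORC2, ORC3, ORC4 and ORC5, which with ORC1 form the ring around DNA, were not called in any library. ORC3 was the lowest of these 4, with 536 reads in Bulk against 410, 340 and 370 (log2 ratios -0.49, -0.67 and -0.53). ORC4 counts were 539 for Bulk and 524, 494 and 486 for the slow-cycling libraries. The intervals of ORC4 included 0 in all 3 libraries (for Claret -0.32 to 0.03), as did that of ORC2 in Claret (-0.31 to 0.04), and a difference in these was not detectable at this depth.

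Compared per length, the order of the ORC subunits was different in the slow-cycling libraries. In Bulk, ORC1 was at 9.84 FPKM and ORC6 at 19.9 FPKM, above ORC2 at 6.22 FPKM. ORC1 was 1.5 times the geometric mean of ORC2 to ORC5 in Bulk and 0.225, 0.233 and 0.234 times it in Claret, eGFP and Violet. For ORC6 the same ratio was 3.02 in Bulk and 0.801, 0.710 and 0.738 in the others. ORC1 was thus the scarcest subunit mRNA per length in each slow-cycling library, at 1.15 to 1.19 FPKM.

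The loading factors were all called lower, by unequal amounts. CDC6 (ENSG00000094804, chromosome 17, 40287633 to 40304657), the ATPase that completes the loading complex, gave 2575 reads for Bulk, then 464 for Claret, 318 for eGFP and 344 for Violet. Its log2 ratios of -2.57, -3.02 and -2.90 were below those of its partner CDT1 (ENSG00000167513, chromosome 16, 88803213 to 88809258), at -1.39, -1.72 and -1.68 from 1472 reads for Bulk and 605, 448 and 458 elsewhere. GMNN (ENSG00000112312, chromosome 6, 24774931 to 24786099), the CDT1 inhibitor, gave 1049 reads for Bulk, then 301 for Claret, 222 for eGFP and 299 for Violet. Inhibitor and target mRNA were near equal per length in Bulk, with CDT1 at 1.04 times GMNN. The ratio was 1.49 for Claret, 1.5 for eGFP and 1.14 for Violet. The intervals of the CDT1 and GMNN ratios to Bulk did not overlap in Claret (-1.53 to -1.25 and -2.10 to -1.72) or eGFP (-1.88 to -1.58 and -2.47 to -2.04) and overlapped in Violet (-1.84 to -1.53 and -1.9999 to -1.62).

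All 6 genes of the MCM2-7 ring, in which each subunit is present once, were called lower in the 3 libraries, and MCM6 least. MCM2 gave 2218 reads for Bulk, then 480 for Claret, 363 for eGFP and 468 for Violet. MCM5 (ENSG00000100297, chromosome 22, 35400063 to 35425430) fell from 3797 reads to 797, 635 and 615, at log2 ratios of -2.36, -2.59 and -2.62. MCM6 (ENSG00000076003, chromosome 2, 135839626 to 135876426) fell from 1732 reads to 802, 722 and 732, at -1.22 (-1.34 to -1.10), -1.27 and -1.24. MCM3, MCM4 and MCM7 lay between -2.59 and -1.92. None of their intervals, nor those of MCM2 and MCM5, overlapped that of MCM6 in the same library. Per length, MCM6 was the lowest of the 6 in Bulk, at 27.1 FPKM, and 0.504 times the geometric mean of the other 5. In the slow-cycling libraries it was at 11.0 to 11.5 FPKM, and 1.00, 1.12 and 1.04 times that mean. The highest of the 6, MCM7 (ENSG00000166508, chromosome 7, 100092728 to 100101940), was at 156 FPKM in Bulk and 36.6, 32.2 and 33.1 FPKM in the others, so that the ratio of highest to lowest subunit stayed at 5.75 in Bulk and 6.34 to 6.95 elsewhere. The promoter with 2 of the doubled elements shown above is that of MCM6, and a link between these letters and its ratio was not tested.

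**Figure D2:**
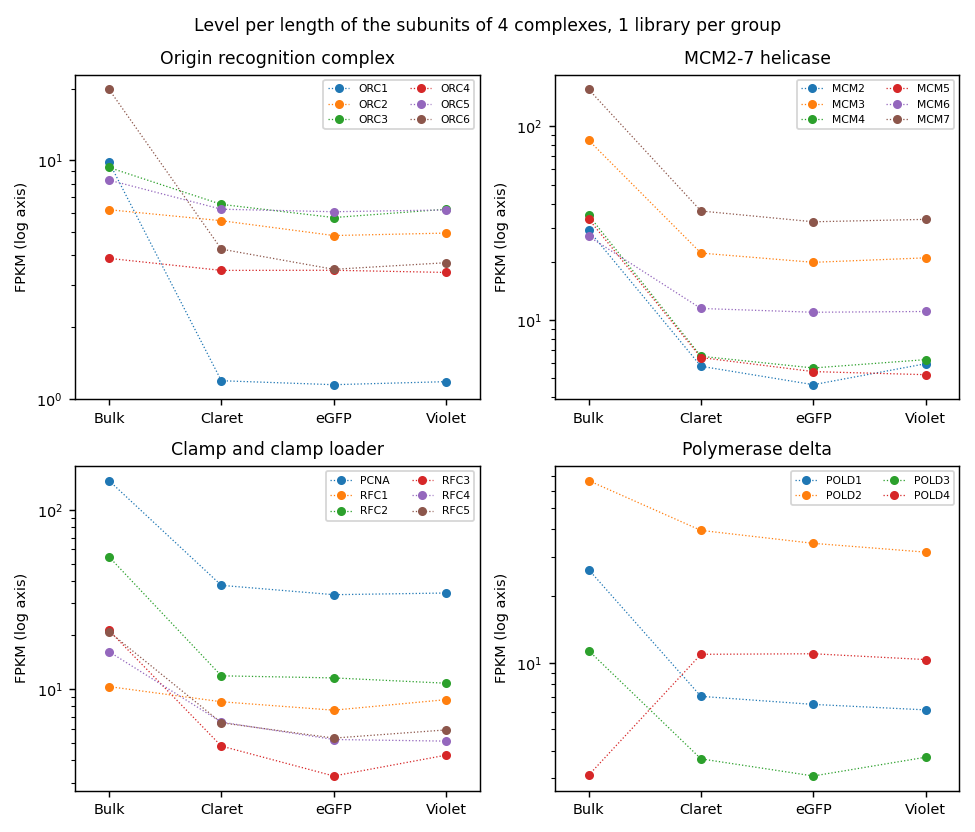
Deposited FPKM (vertical log axis) of each subunit of ORC, MCM2-7, PCNA with the RFC clamp loader, and polymerase delta in the 4 libraries; dotted lines join the values of 1 gene. ORC1 drops below all other ORC subunits, MCM6 moves from the bottom of its complex to the middle, and POLD4 is the one subunit shown that is higher than Bulk.

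MCM10 and MCM8 are not part of that ring. MCM10 (ENSG00000065328, chromosome 10, 13161554 to 13211104), which helps activate the loaded helicase, gave 1063 reads for Bulk, then 143 for Claret, 94 for eGFP and 117 for Violet, with log2 ratios of -2.98, -3.48 and -3.16. MCM8, known for its part in recombination repair, fell from 1804 reads to 744, 615 and 569 (-1.38, -1.56 and -1.66). The ratio of MCM10 was below that of MCM8 in every library, and their intervals did not overlap.

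The helicase activators CDC45 and GINS were the role group with the lowest medians among groups of more than 3 genes, at -2.60 for Claret, -2.88 for eGFP and -2.84 for Violet, and all 5 were called lower in each library. CDC45 (ENSG00000093009, chromosome 22, 19479459 to 19520612) gave 1129 reads for Bulk, then 165 for Claret, 83 for eGFP and 154 for Violet. Its log2 ratio was -3.75 (-4.12 to -3.46) in eGFP against -2.87 (-3.13 to -2.65) in Claret and -2.86 (-3.13 to -2.63) in Violet, which made its spread over the slow-cycling libraries, 0.89, the widest of all 46 genes. GINS2 (ENSG00000131153, chromosome 16, 85676198 to 85690073) fell from 555 reads to 58, 49 and 50. GINS1 gave 1269 reads for Bulk and 228, 197 and 228, and GINS4 had 436 and 76, 58 and 59. The 4 GINS subunits form one tetramer, and GINS3 (ENSG00000181938, chromosome 16, 58295080 to 58406144) was the least low of them, at -1.63 for Claret, -2.15 for eGFP and -2.12 for Violet from 384 reads in Bulk and 132, 86 and 87.

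Among the polymerases, the catalytic subunits were called lower in all 3 libraries and some accessory subunits were not. POLA1, the catalytic subunit of polymerase alpha, gave 1220 reads for Bulk, then 360 for Claret, 318 for eGFP and 281 for Violet. Its primase partners PRIM1 (187 reads in Bulk, 87, 66 and 56 in the others) and PRIM2 (596 reads in Bulk, 197 in Violet) were less low, at -1.70 to -1.19 and -1.59 to -1.47. POLA2, the regulatory subunit, was not called, at -0.87, -0.85 and -0.86, but rested on 98 reads in Bulk and 53 to 57 elsewhere, and 37.7% of its 31-base stretches also occur in other annotated genes, so its count is uncertain. POLD1 and POLE, the catalytic subunits of polymerases delta and epsilon, were close to each other, at -2.05 to -1.88 and -2.17 to -2.03. POLE2 (660 reads in Bulk, 169, 127 and 145 in the others) and POLD3 (972 reads, then 344, 271 and 331) are accessory subunits and were called as well.

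POLD2 and POLD4, accessory subunits of polymerase delta, stood apart from POLD1 and POLD3. POLD2 (ENSG00000106628, chromosome 7, 44114681 to 44124358) gave 3820 reads for Bulk, then 2485 for Claret, 2045 for eGFP and 1875 for Violet, log2 ratios of -0.73, -0.91 and -1.02, and was called in Violet alone, where its interval of -1.11 to -0.95 included -1. Scaling by library totals put this value at -0.98 and a filter at 10 CPM at -0.95, which ended the call, and a correction for GC content put the eGFP value at -1.03. The difference itself between Claret and Violet was 0.30 (0.21 to 0.38). Per length POLD2 was 2.52 times POLD1 in Bulk and 5.62, 5.34 and 5.16 times in the others. POLD4, which is not among the 46 genes and was kept on a list of further fork proteins, went the other way, from 147 reads in Bulk to 565, 535 and 506. Its log2 ratios were 1.82 (1.57 to 2.11), 1.84 (1.59 to 2.12) and 1.77 (1.52 to 2.06). Per length it was 0.118 times POLD1 in Bulk and 1.55, 1.69 and 1.69 times in Claret, eGFP and Violet. Of the 31-base stretches of POLD4, 30.3% occur in other annotated genes, of which the one sharing most had 0 reads in all 4 libraries.

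PCNA (ENSG00000132646, chromosome 20, 5114953 to 5126626), the sliding clamp, was at 145 FPKM in Bulk and 37.9, 33.6 and 34.3 FPKM in Claret, eGFP and Violet, from 3325 reads and 945, 789 and 810. Its log2 ratios of -1.92, -2.09 and -2.03 were near the median of all 46. The loader subunits RFC2, RFC3, RFC4 and RFC5 were all called, between -2.66 and -1.28, and PCNA kept a near-constant level per length against their geometric mean, 5.82 times in Bulk and 5.41, 5.90 and 5.62 times in the others. RFC1 (ENSG00000035928, chromosome 4, 39287456 to 39366375), the large subunit that makes this loader specific to replication, was not called. It gave 1076 reads for Bulk, then 967 for Claret, 817 for eGFP and 940 for Violet, at log2 ratios of -0.26 (-0.39 to -0.14), -0.41 and -0.19. Against the geometric mean of RFC2 to RFC5, RFC1 was 0.412 times in Bulk and 1.21, 1.34 and 1.43 times in the slow-cycling libraries. RFC2 to RFC5 are known to serve in other clamp loaders too, with RFC1 replaced.

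FEN1 (ENSG00000168496, chromosome 11, 61792637 to 61797244), the nuclease that trims Okazaki fragments, gave 3989 reads for Bulk, then 576 for Claret, 488 for eGFP and 476 for Violet (-2.90, -3.04 and -3.06). LIG1, the ligase that then seals them, fell from 1524 reads to 456, 413 and 430 (-1.84, -1.89 and -1.82). FEN1 was 6.95 times LIG1 per length in Bulk and 2.94 to 3.35 times in the slow-cycling libraries, and the intervals of the 2 genes were far apart in each library (in Claret -3.03 to -2.77 and -2.003 to -1.70).

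At the fork itself, CLSPN (ENSG00000092853, chromosome 1, 35720218 to 35769967), the adaptor through which ATR activates CHK1, gave 1726 reads for Bulk, then 172 for Claret, 133 for eGFP and 159 for Violet. WDHD1, which links helicase and polymerase alpha, fell from 1989 reads to 511, 465 and 470, and its log2 ratios of -2.06, -2.10 and -2.08 hardly differed between slow-cycling libraries. TIMELESS and TIPIN form a heterodimer that steadies the fork. TIMELESS fell from 1952 reads to 446, 326 and 364. TIPIN gave 606 reads for Bulk and 224, 145 and 192, with 30.0% of its 31-base stretches found in other annotated genes. Per length TIMELESS was 1.53 times TIPIN in Bulk and 0.943, 1.06 and 0.898 times in Claret, eGFP and Violet.

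DTL, FAM111B and TOP2A complete the set. DTL, the receptor that hands CDT1 to a ubiquitin ligase on PCNA, gave 994 reads for Bulk, then 299 for Claret, 275 for eGFP and 292 for Violet (-1.83, -1.86 and -1.76). FAM111B (ENSG00000189057, chromosome 11, 59107185 to 59127410), a protease-domain protein, had 16.0 FPKM in Bulk and 1.17, 0.891 and 0.742 FPKM in the others, the largest fold of the 46 genes in each library, at 13.1-fold, 17.1-fold and 20.1-fold lower. TOP2A (ENSG00000131747, chromosome 17, 40388516 to 40417950), the topoisomerase that untangles sister DNA, gave 14220 reads for Bulk, then 3399 for Claret, 2487 for eGFP and 3330 for Violet. Per length it was 4.93 times its paralog TOP2B in Bulk and 1.05, 0.835 and 1.07 times in the others, while TOP2B itself differed from Bulk by 0.03 to 0.12 log2 units.

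Between the slow-cycling libraries most of the 46 genes were lowest in eGFP and most were highest in Claret, by small amounts. Both held together for 21 of the 46, a count that was not made over all genes. Claret was above eGFP in 44 of the 46, with a median difference of 0.19, and above Violet in 32 (median 0.11). In 33 members eGFP was below Violet (median -0.06). Of the 14585 genes kept, 7372 had Claret above eGFP, 7347 had Claret above Violet and 7313 had eGFP below Violet. The medians over all genes kept were 0.00 in each pair. No member differed by 1 log2 unit in any pair, as 1.06% to 1.29% of all genes did. The 95% counting interval lay above 0 for 24 members in Claret against eGFP, where 12.7% of all genes did so, and below 0 for none, where 11.8% did. In Claret against Violet it lay above 0 for 11 (background 14.3%) and below for 1, TOP2A (background 13.7%). In eGFP against Violet it lay below 0 for 9 (background 14.0%) and above for 1, POLD2 (background 14.2%). These single genes are lost with a GC correction, and TOP2A also with DESeq2 size factors, which leaves 0 in each case. The lowest of the 3 libraries was eGFP for 33 members (33.1% of all genes), Violet for 11 (35.0%) and Claret for 2 (31.9%). The highest was Claret for 32 (32.8%), Violet for 12 (34.8%) and eGFP for 2 (32.4%). For 19 members no pair gave an interval that left out 0. The spread over the 3 libraries had a median of 0.26 log2 units, ORC4 had the narrowest at 0.01, and 39 members were under 0.5. Neither the count of 19 nor the spread was computed over all genes. Whether members agreed more than other genes is therefore not known. Because the slow-cycling libraries were not replicated, differences between them cannot be set against variation between sorts.

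Members differed in which library stood out. In eGFP, 9 genes were below both Claret and Violet with counting intervals that left out 0, as 4.96% of all genes were: GMNN, MCM2, MCM4, CDC45, POLD3, RFC1, RFC3, TIPIN and TOP2A. TOP2A, for example, was lower in eGFP than in Claret by 0.36 (0.28 to 0.43) with eGFP minus Violet at -0.43 (-0.51 to -0.36) and Claret minus Violet at -0.08 (-0.15 to -0.01). Claret stood above both others in this sense for 8 genes (background 4.94%): CDC6, CDT1, MCM5, MCM7, MCM8, GINS3, POLD2 and RFC4. CDC6 in Claret was above eGFP by 0.45 (0.24 to 0.66) and above Violet by 0.32 (0.12 to 0.53), and eGFP and Violet differed by -0.13 (-0.35 to 0.10). POLD2 was the one member below both others in Violet with intervals that left out 0 (background 6.80%). The 3 slow-cycling libraries had 5.06% to 5.48% of their reads on mitochondrial genes against 4.18% in Bulk, and the part of this in the differences was not tested.

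**Figure D3:**
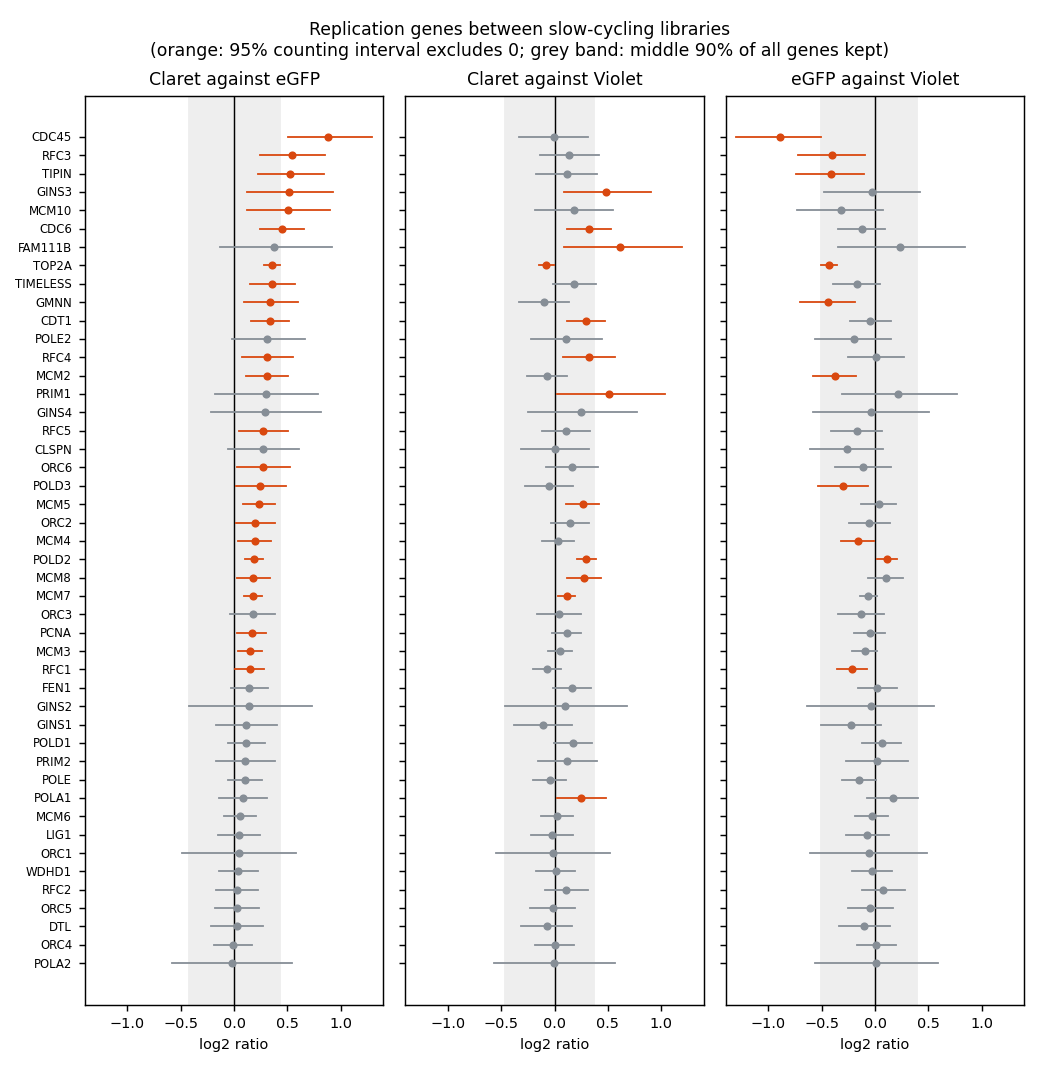
Log2 ratio (horizontal axes) of each member in the 3 pairs of slow-cycling libraries, sorted by Claret against eGFP, with 95% counting intervals; orange marks intervals that leave out 0 and the grey band holds the middle 90% of all genes kept. Points in the left panel lie to the right of 0 for 44 of 46 genes, and CDC45 lies outside the band in both panels that involve eGFP.

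Promoter letters and the size of the difference were set side by side. The 22 members with an E2F-type match had a median of -2.002 (median of the 3 log2 ratios, range -3.42 to -0.53) and the 19 without had a median of -1.99 (range -3.16 to -0.15). Of those with a match 20 were called lower in all 3 libraries, the exceptions being POLA2 and ORC3, and of those without 14 were, beside 4.93% of all genes. MCM10, FEN1, ORC1 and CDC45 were among the members without these letters in the window. The median therefore hardly differed with the presence of the match, and that no match was found says only that these letters are not in this window.

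Position offered a comparison within single loci, chosen after the values had been seen. Of the 46 genes, 19 have a protein-coding gene on the other strand that starts within 1000 bases in GENCODE 29, and 17 of these neighbours passed the expression filter. Starts here are those of the whole annotated gene and can differ from the RefSeq starts used for promoters. TIPIN, paired with MAP2K1, starts at 66386746 here, while its promoter window shown above ends at 66356777. Of the 17 members, 15 were called lower in all 3 libraries, beside 4.93% of all genes, and of the 17 neighbours 1 was, a share near that background. It was PRKDC, the catalytic subunit of the DNA repair kinase DNA-PK, which starts 2 bases from MCM4. The median over the neighbours was -0.24 (range -1.30 to 0.55) and over their paired members -2.07. By the median of the 3 ratios the member was lower than its neighbour in all 17 pairs, and in each library separately in 16. The exception was ORC4, at -0.14 in eGFP with its neighbour MBD5 at -0.18. ORC1, for instance, starts 105 bases from PRPF38A, a splicing factor gene at -0.25 for Claret, -0.43 for eGFP and -0.58 for Violet. ORC6 starts 125 bases from VPS35, a gene of endosome sorting at -0.18, -0.30 and -0.24. UFD1, 244 bases from CDC45, was the next lowest neighbour after PRKDC, at -1.03, -0.98 and -1.25. In 5 of the 17 pairs the annotated genes overlap at their starts, FEN1, MCM2, MCM7, PRIM1 and ORC4, and reads there could be split between them, since use of strand in counting is not given in the sources used here.

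**Figure D4:**
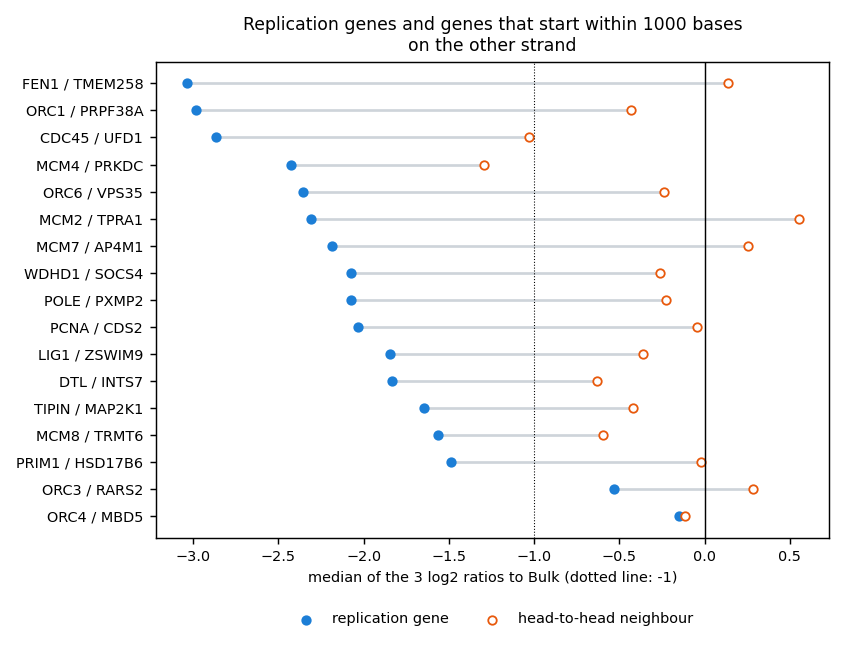
Median of the 3 log2 ratios to Bulk (horizontal axis) of 17 members (filled) and of the protein-coding gene that starts within 1000 bases on the other strand (open). Neighbours lie between -1.30 and 0.55, to the right of their partner in every pair, by little for ORC4.

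A further 46 replication genes, on 4 lists, put the members in the setting of the wider machinery, and 45 of them passed the filter. The other, RNASEH2A, had a count of 27 for Bulk and 2 to 8 elsewhere and was left out. Of the 45, 23 were called lower in all 3 slow-cycling libraries and 1, POLD4, higher, beside backgrounds of 4.93% and 8.67%. The list medians were -1.33, -1.43 and -1.33 for 13 origin-firing and licensing regulators (8 lower in all 3) and -0.72, -0.95 and -0.93 for 15 other fork proteins (7 lower, 1 higher).

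Within the firing regulators, the helicase RECQL4 was lowest, from 52.3 FPKM in Bulk to 10.8, 8.18 and 8.44 FPKM in Claret, eGFP and Violet, followed by TICRR, which brings CDC45 to origins, at -1.78, -1.88 and -1.96. LRWD1, which binds ORC on chromatin, at -0.36, -0.45 and -0.56, and the repair helicase MCM9, at -0.58, -0.16 and -0.50, were not called. Among the fork proteins, DSCC1 and ATAD5 belong to clamp loaders that use RFC2 to RFC5 without RFC1. DSCC1 fell from 705 reads to 154, 103 and 99 (-2.29, -2.76 and -2.81), and ATAD5 had 664 and 133, 152 and 122 (-2.41, -2.13 and -2.42). Both were lower than RFC1 in each library, but they were named as the 2 lowest genes of their list. On the same list CHTF18 was also called (-1.81, -2.01 and -2.05). CHTF8 was not, at -0.29, -0.33 and -0.33, which is near RFC1.

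Of 9 genes of chromatin assembly behind the fork, 7 were called lower in all 3, with medians of -1.89, -2.02 and -1.97. UHRF1, which reads hemimethylated DNA, fell from 4339 reads to 619, 561 and 588, with 27.3% of its 31-base stretches in other annotated genes, the closest of which itself went from 412 reads to between 58 and 82. The paralogous histone chaperones ASF1A and ASF1B differed. ASF1B was at -2.09, -2.59 and -2.34, and ASF1A at -0.14, -0.06 and -0.12. The ATR checkpoint list was least low: CHEK1, the effector kinase, was the 1 of 8 genes called in all 3 (-1.29, -1.39 and -1.43), ATRIP was called in eGFP and Violet (-1.28 and -1.34) and at -0.92 in Claret, and RAD17 (0.26, 0.27 and 0.32) and ETAA1 (0.35, 0.37 and 0.52) lay above Bulk without being called. SSRP1, a subunit of the FACT histone chaperone, was called in eGFP and Violet, at -1.09 and -1.12, and was at -0.88 in Claret.

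**Figure D5:**
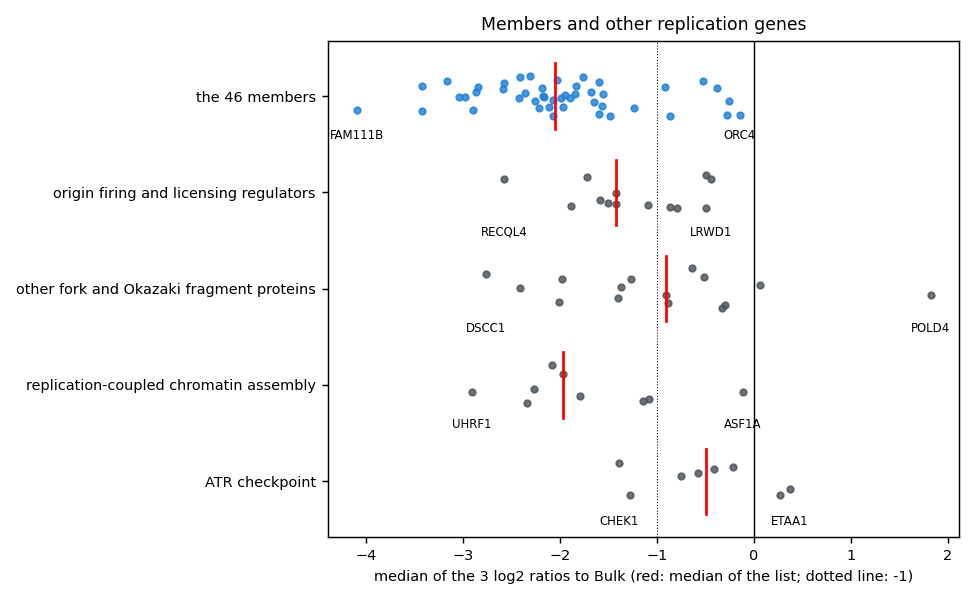
Median of the 3 log2 ratios to Bulk (horizontal axis) for the 46 members and the 4 lists of further replication genes, 1 point per gene, with the list's median in red and its lowest and highest gene named. POLD4 is the only gene right of 1, and the ATR checkpoint list lies closest to 0.

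Some counts could be shared with other genes. Of the 46 members, 6 had at least 20% of their 31-base stretches in other annotated genes: POLA2, GINS4 (30.0%), TIPIN, PRIM2 (22.9%), MCM2 (20.8%) and PRIM1 (20.6%). The gene that shared most with each had at most 3 reads in any library, except for POLA2, whose closest partner had 6 reads for Bulk and 12 to 24 for the slow-cycling libraries. How reads that match several genes were counted is not given, so few reads for a partner do not show that a count is unaffected. ATRIP, on the ATR checkpoint list, had 26.6% of its stretches in other annotated genes.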

How the data were processed

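RNA was sequenced from 4 sorted samples, 1 library per group. Per the labels' protocols, TRIzol was used for extraction and the NEBNext Ultra kit for the libraries. HISAT2 2.0.5 and featureCounts 1.5.0-p3 are named in the submitters' processing notes. Genome build, use of strand and handling of multi-matching reads are not given in the sources used here. All 58735 genes in the deposited table have the start and end of GENCODE 29, an annotation of GRCh38. The authors deposited raw read counts per gene and FPKM. The deposited FPKM equal counts per kilobase of the listed gene length over a total that is 96.9% to 103.5% of the summed counts. These totals equal those given by DESeq2 size factors, so the alternatives log2(FPKM + 1) and DESeq2 scaling share their scaling.

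Counts were scaled by TMM (edgeR 4.0.16, R 4.3.3) over the 14585 genes with a mean of at least 1 CPM. Log2 ratios used log2 CPM with a prior count of 2. Each ratio of reads has an exact 95% interval by the Clopper-Pearson method. With 1 library per group no test was possible, and a gene was called at a log2 ratio of at least 1 in size. FPKM was used to compare levels between genes. Such comparisons depend on the length listed for each gene, and which transcripts were expressed was not tested. The calculation was tested on simulated data.

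The members and the lists were chosen with earlier results of these data known. All members may be named, and of each further list the 2 genes with the lowest and the 2 with the highest median of the 3 log2 ratios. RNASEH2A, CHTF18, CHTF8 and the neighbouring genes were named after their values were seen. Shared 31-base stretches and neighbours were computed from GENCODE 29 transcripts and genes. Alternatives were other scalings (library totals, DESeq2 1.42.0 size factors), filters, a prior count of 0.5, log2(FPKM + 1), a GC correction, a log2 threshold of 1.5 and groups from the treatment field.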

Additional observations from a re-analysis of the deposited data

How the results depend on the processing

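Grouping by the treatment field was the alternative that changed the results against Bulk most. With it the median log2 ratio of the 46 genes was 2.06 for Claret, 0.11 for eGFP and -0.061 for Violet, and 0 genes were called lower in each. The filter at 10 CPM removed GINS4, POLA2 and PRIM1, and 37 of the other 43 genes were called lower in each library. On the scale log2(FPKM + 1), which understates differences of low genes, the medians were -1.78, -1.90 and -1.89. There 71 of the 138 ratios to Bulk lay outside their main counting interval. The GC correction put 14 of 138 outside, and the filter at 10 CPM 6 of 129. Fewer members were called in Claret at the log2 threshold of 1.5, which CDT1, MCM6, MCM8, PRIM1, PRIM2 and RFC4 did not reach. Among single genes, library totals and a filter at 10 CPM moved POLD2 in Violet to -0.98 and -0.95, log2(FPKM + 1) moved PRIM1 in Claret to -0.94, and the GC correction moved POLD2 in eGFP to -1.03. The other alternatives that used the titles, apart from the 1.5 threshold itself, changed no call against Bulk and no sign of a member's ratio. Between slow-cycling libraries, the 1 member with an interval below 0 in Claret against Violet went to 0 with DESeq2 size factors and with the GC correction, and the 1 above 0 in eGFP against Violet went to 0 with the GC correction. No paired analysis was possible because each group holds 1 library. Leaving out a replicate was not possible for the same reason. Depth limits the weakly counted genes most, such as POLA2 and GINS2, and variation between sorts was not measured.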
